A study of Mus musculus with 3 samples.

Results

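Cycling lung lymphocytes were the cells whose transcripts showed passage through the cell cycle: 56 of the 5164 cells kept from 3 single-cell libraries of mouse lung, or 1.084%. A cell was selected on at least 4 unique molecular identifiers (UMIs, counted transcript molecules) summed over Mki67, Top2a, Birc5, Pclaf, Rrm2 and Nusap1, with no UMI of Cldn5, Cdh5 or Lyz2, which mark endothelial and myeloid cells. Kept cells had at least 500 detected genes and at most 10% mitochondrial UMIs. The other 4939 kept cells without the 3 excluding genes served as the cells to compare with.

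The study sorted lymphocytes from perfused and enzymatically digested lungs of mice with a GFI1B-GFP reporter, GFI1B being a zinc finger repressor of transcription. All cells had passed a gate for innate lymphoid cells (ILC), as live lineage negative cells that carry CD45, CD90.2 and IL-7R. The IL-18R+ pool combines cells sorted as IL-18R+ CD103+ GFP- with cells sorted as IL-18R+ CD103- GFP+, and a cell of the pool is not assigned to either sort in the sources used here. A further library is labelled IL-18R- ST2+, and the remaining library IL-18R- CD103- GFP-. The sources used here do not give the lineage antibodies or the strain, age and number of mice, and each group is 1 library. No difference below therefore has a replicate check, and every interval is a 95% interval that covers counting error only.

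Cell division runs through S phase, in which DNA and histones are made, and then G2 and M phase, in which the spindle is built and chromosomes are separated. Genes of S phase are switched on by E2F factors and genes of G2 and M phase by the MuvB, B-MYB and FOXM1 factors, which act at promoter elements called CHR. Lung ILC are mostly long-lived resident cells, and resident gamma delta T cells and ILC can renew themselves by local division.

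The IL-18R+ pool held 37 cycling cells among 1659 kept cells, or 2.23% (1.575 to 3.061%, exact Clopper-Pearson). The library labelled IL-18R- CD103- GFP- held 13 of 1883, or 0.6904% (0.3681 to 1.178%), and the IL-18R- ST2+ library held 6 of 1622, or 0.3699% (0.1359 to 0.8034%). The interval of the pool lies above those of both other libraries, whose intervals overlap. The kept cells of the 3 libraries held 9000301, 9705864 and 7966923 UMIs in this order. With every cell thinned to 2000 UMIs, the shares were 1.402% (23 cells), 0.3755% and 0.3109%, in the same order of libraries.

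Cycling cells were deeper than the other cells of their library. Their median depth was 14139 UMIs in the pool, against 4913 UMIs in the other cells of the pool. In the IL-18R- CD103- GFP- labelled library it was 10115 against 4767 UMIs, and in the IL-18R- ST2+ library 13223 against 4554 UMIs. Median detected genes were 3468, 2988 and 3290 in cycling cells, against 1848, 1786 and 1566 in other cells. The mitochondrial share differed less, with medians of 2.603%, 3.482% and 3.462% in cycling cells, against 2.918%, 3.606% and 3.842% in other cells. How far doublets contribute to this depth was not tested. Scrublet called 26 of 5164 cells (0.5035%) as doublets, 1 of them a cycling cell. UMIs of both Trdc and Trac were held by 4 cycling cells, and of both Ccr10 and Ncr1 by 2. The pool and the IL-18R- CD103- GFP- labelled library shared 1 barcode, which belonged to no cycling cell.

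The rule genes chose the cells, so their values are a description. The rule sum ranged from 4 to 142 UMIs per cell with a median of 26 in the pool. It ranged from 4 to 85 with a median of 22 in the IL-18R- CD103- GFP- labelled library and from 4 to 82 with a median of 48 in the IL-18R- ST2+ library. All 6 rule genes were seen in 24 of the 56 cells. At the threshold, 3, 1 and 1 cells had exactly 4 rule UMIs and a median of 100, 41 and 34 UMIs over the S and G2 and M phase lists described below. Just outside it, 2, 3 and 3 cells had 3 rule UMIs and 58.5, 22 and 76 phase list UMIs. All cycling cells of each library had medians of 208, 143 and 202 phase list UMIs, against 10, 10 and 7 in the other cells.

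Stmn1 encodes stathmin, which destabilises microtubules, and was not part of the rule. It had a UMI in 54 of the 56 cycling cells. Levels are given as UPM, the UMIs of a gene per 1000000 UMIs of the same cells. Stmn1 had a level in cycling cells of 2194 UPM in the pool, 1791 UPM in the IL-18R- CD103- GFP- labelled library and 2534 UPM in the IL-18R- ST2+ library. Other cells had 21.68, 19.95 and 9.818 UPM. Stmn1 was thus higher in the cycling cells of all 3 libraries. It is outside the rule but among the markers given with the name of these cells, so its values too are a description.

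The label of lymphocytes was checked on the genes of the sort. Ptprc (CD45) had a UMI in 56 of 56 cycling cells, Il7r in 55 and Thy1 (CD90) in 49. Gfi1b itself had 0 UMIs in every cycling and other cell, with exact Poisson upper limits of 7.39, 27.52 and 47.21 UPM in cycling cells of the 3 libraries. In the IL-18R- CD103- GFP- labelled library, Il18r1 had a UMI in 13 of 13 cycling cells and in 86.98% of other cells, and its level in other cells was 600.9 UPM there, 725.1 UPM in the pool and 16.15 UPM in the IL-18R- ST2+ library. The transcript of the IL-18 receptor thus goes against that label, which is of surface protein. Itgae (CD103) goes with the label, with a UMI in 1.362% of other cells there, against 35.9% in the pool. The library is called by its label throughout.

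Some genes of other cell types were present in cycling cells. In the pool, Pecam1 (endothelium and some lymphocytes) had 20 UMIs and Cd79b (B cell receptor) 17 UMIs, while the defining genes Kdr, Emcn, Ms4a1, Pax5, Csf1r, Adgre1, Itgam and Flt3 were at 0 in the cycling cells of all 3 libraries. The endothelial list summed to 48.08, 29.84 and 38.39 UPM in cycling cells of the 3 libraries, against 32.71, 31.68 and 17.7 UPM in other cells. The B cell and plasma list summed to 72.12 UPM in cycling cells of the pool, against 173.3 UPM in other cells, and the myeloid and dendritic list, which holds Cd74, to 1356 against 658.4 UPM. The part of such RNA in the results was not tested. Leaving out cells with at least 2 UMIs over the B cell, mast cell, endothelial, stromal and epithelial lists left 23, 9 and 3 cycling cells, or 1.602%, 0.519% and 0.1957% of those kept, in the same order of libraries.

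Lineage was read from 6 genes together with CD3. Trdc and Trac encode the constant regions of the delta and alpha T cell receptor chains, Il1rl1 encodes ST2, the IL-33 receptor of ILC2, and Ccr10 is a chemokine receptor of epithelial homing. Tcf7 encodes TCF1, a factor of ILC progenitors and naive-like T cells, and Ncr1 encodes NKp46 of NK cells, ILC1 and some ILC3. A cell with at least 2 UMIs over Cd3d, Cd3e and Cd3g was called a gamma delta T cell if it had Trdc and no more Trac than Trdc, an alpha beta T cell if it otherwise had Trac, and CD3+ other if it had neither. The remaining cells, called CD3- here, were given the first of Il1rl1+, Ncr1+, Ccr10+ and Tcf7+ that they met, or none. These names are read from UMIs of a few genes, not from surface protein.

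In the pool, the cycling cells were mostly CD3-, in contrast to the cells around them. CD3- cells made up 26 of 37 cycling cells (70.27%, 53.02 to 84.13%), against 18.38% of other cells. Of the cycling cells, 12 were Ccr10+ (32.43%), 7 were Tcf7+ (18.92%), 5 were Ncr1+ (13.51%), 6 were alpha beta T cells (16.22%), 5 were gamma delta T cells (13.51%) and 2 were of none of these. Among other cells, gamma delta T cells made up 59.39%, alpha beta T cells 15.06%, Tcf7+ cells 5.773%, Ccr10+ cells 3.517% and Ncr1+ cells 2.123%. Alpha beta T cells were thus about as frequent among cycling as among other cells, gamma delta T cells were rarer and the Ccr10+, Ncr1+ and Tcf7+ cells were more frequent.

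In each of the other libraries, most cycling cells were of its main class. In the IL-18R- CD103- GFP- labelled library, 10 of 13 cycling cells were gamma delta T cells (76.92%), against 80.87% of other cells, and the remaining 3 were 1 Ncr1+ cell, 1 cell with a single Ccr10 UMI and 1 of no class. In the IL-18R- ST2+ library, 5 of 6 cycling cells were Il1rl1+ (83.33%), against 79.52% of other cells. The sixth was a gamma delta T cell with 19 Trdc and 31 Il17a UMIs, Il17a encoding the cytokine of type 17 lymphocytes. Assigned by their 15 nearest other cells in expression without the cycle genes, all 13 cells of the first of these libraries took the gamma delta T class and all 6 of the second the Il1rl1+ class. These classes made up 80.87% and 79.52% of the other cells, so the vote favoured them and says little on lineage. It gave Il1rl1+ even to the cell with 19 Trdc UMIs. With cells thinned to 2000 UMIs, the shares were instead 69.23% gamma delta T cells and 50% Il1rl1+ cells. In the pool the assignment by neighbours gave 14 Ccr10+, 7 Tcf7+, 6 alpha beta T, 3 Ncr1+ and 2 gamma delta T cells.

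**Figure D1:**
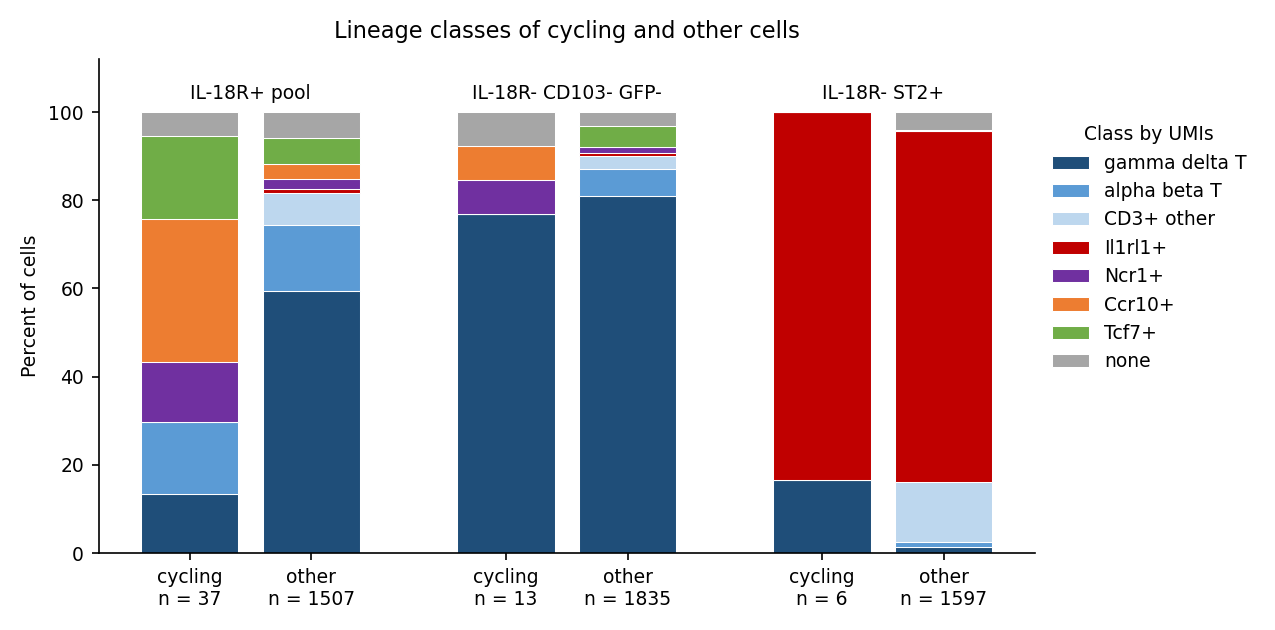
Percent of cycling cells (left bar of each pair) and of other cells (right bar) in each lineage class for the 3 libraries, with the number of cells under each bar. In the pool 32.43% of cycling cells were Ccr10+, against 3.517% of other cells, while in the other libraries the leading class was the same in both bars.

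Seen from each lineage, the share of cells in cycle in the pool differed between classes by more than counting error. Of Ccr10+ cells, 12 of 65 were cycling, or 18.46% (9.92 to 30.03%). Of Ncr1+ cells 5 of 37 were (13.51%, 4.537 to 28.77%) and of Tcf7+ cells 7 of 94 (7.447%, 3.046 to 14.74%). Of alpha beta T cells 6 of 233 were cycling (2.575%, 0.9508 to 5.52%) and of gamma delta T cells 5 of 900 (0.5556%, 0.1806 to 1.292%). The intervals of Ccr10+, Ncr1+ and Tcf7+ cells overlap one another and lie above that of gamma delta T cells, while alpha beta T cells overlap with Ncr1+ and Tcf7+ cells and with gamma delta T cells. All CD3- cells together gave 26 of 303 (8.581%, 5.682 to 12.32%), against 11 of 1241 CD3+ cells (0.8864%, 0.4433 to 1.58%). No cell of the CD3+ other class was cycling among 108, which allows up to 2.778%.

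Within the IL-18R- CD103- GFP- labelled library, 10 of 1494 gamma delta T cells were cycling, or 0.6693% (0.3214 to 1.227%), an interval that overlaps with that of gamma delta T cells of the pool. Of its CD3- cells, 3 of 186 were (1.613%, 0.3339 to 4.641%), and none of its alpha beta T cells, which allows up to 2.679%, or of its 87 Tcf7+ cells, which allows up to 3.448%. In the IL-18R- ST2+ library, 5 of 1275 Il1rl1+ cells were cycling, or 0.3922% (0.1275 to 0.9128%), and 1 of 22 gamma delta T cells. None of its 218 CD3+ other cells was cycling, which allows up to 1.376%. The cycling share of CD3- cells of the pool lay above that of Il1rl1+ cells of the IL-18R- ST2+ library, and their intervals did not overlap.

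**Figure D2:**
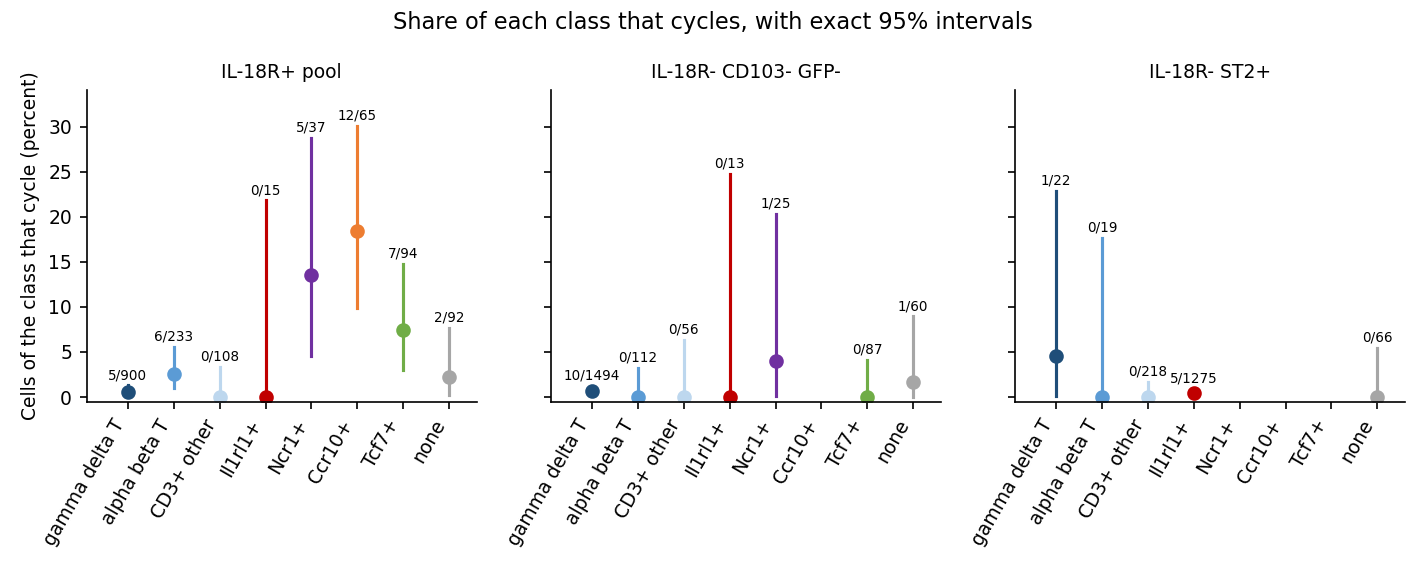
Percent of the cells of each class that were cycling, by library, with exact 95% intervals of counting error as lines and cycling over all cells of the class as labels, for classes of at least 10 cells. In the pool the points of Ccr10+ (12/65) and Ncr1+ (5/37) cells stand highest and that of gamma delta T cells (5/900) lowest among classes with a cycling cell.

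The levels of the lineage genes were compared as well. In the pool Ccr10 had a UMI in 43.24% of cycling cells and 326.5 UPM, against 7.167% and 43.75 UPM in other cells, and 35.14% against 4.606% at 2000 UMIs per cell. Gamma delta T cells among the other cells of the pool had it in 3.24% (2.13% at 2000 UMIs). Whether those UMIs are background was not tested. Trdc had 100.2 UPM in cycling cells of the pool, against 1332 UPM in other cells. Ccr10 was thus higher and Trdc lower in cycling cells of the pool.

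Tcf7 and Trac stood closer in the pool. Tcf7 had 196.3 UPM in cycling cells of the pool, against 211.2 UPM in other cells, and Trac had 108.2 against 137.3 UPM. Ncr1 had 20 UMIs in 5 cycling cells of the pool, or 40.06 UPM, against 15.39 UPM in other cells. Il1rl1 had a UMI in 0 of 37 cycling cells of the pool, which allows a share of cells with a UMI of up to 8.108%, against 5.645 UPM in other cells. In the IL-18R- ST2+ library Il1rl1 had 742.3 UPM in cycling cells, against 880.8 UPM in other cells, and Trdc in the IL-18R- CD103- GFP- labelled library had 1067 against 1727 UPM.

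Some cells carried signs of more than 1 class. In the pool, 12 of the 16 cycling cells with a Ccr10 UMI also had a Tcf7 UMI. Cells with both genes were called Ccr10+ by the order of the class rule, so Ccr10+ and Tcf7+ cells are not separated by Tcf7. Of the 5 gamma delta T cells in cycle in the pool, 3 rested on a single Trdc UMI. Among those 3, 1 had 27 Ccr10 and 25 Cd74 UMIs, another had 6 Ccr10 and 22 Cd74 UMIs, and the remaining 1 had 41 Il17a UMIs and 17 CD3 UMIs. The other gamma delta T cells of the pool had 23 and 22 Trdc UMIs with no Ccr10. By contrast, the 10 of the IL-18R- CD103- GFP- labelled library had between 5 and 22 Trdc UMIs and no Ccr10 UMI. Alpha beta T cells in cycle in the pool were shallow, with a median of 5486 UMIs and a lowest of 2011, against 5507 in other alpha beta T cells.

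**Figure D3:**
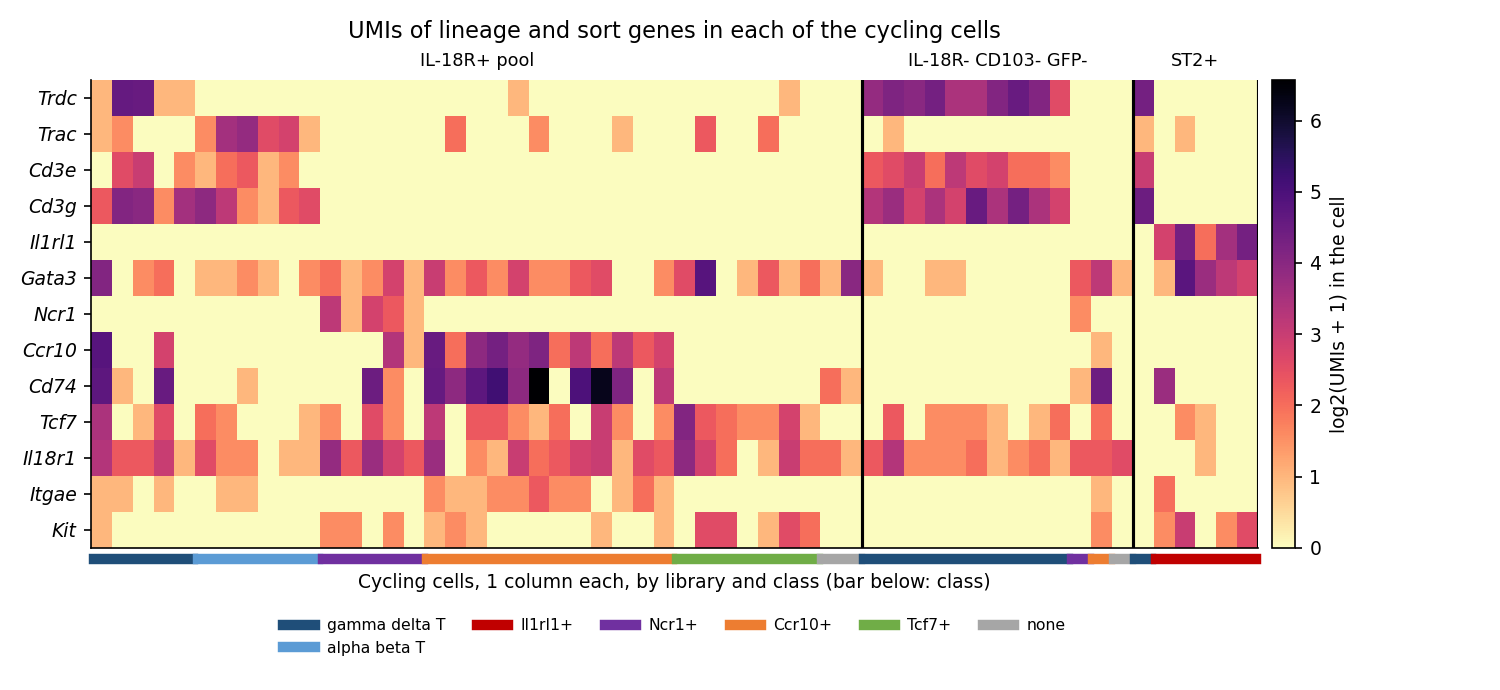
UMIs of lineage and sort genes in each of the 56 cycling cells, 1 column per cell, grouped by library and class, with colour on a log2(UMIs + 1) scale. Cd74 appears in 13 of the 16 cells of the pool with Ccr10, Trdc and Cd3g are seen in most cells of the IL-18R- CD103- GFP- labelled library, and Il1rl1 is seen in 5 of the 6 cells of the IL-18R- ST2+ library.

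Cd74, the invariant chain that loads MHC class II molecules, was higher in cycling than in other Ccr10+ cells of the pool. In these 12 cycling cells Cd74 ranged from 0 to 94 UMIs per cell with a median of 20, against 0 to 21 with a median of 1 in the other 53 Ccr10+ cells. That gave 1918 UPM (1718 to 2135) in cycling and 322.9 UPM (262.1 to 393.5) in other Ccr10+ cells. At 2000 UMIs per cell, 75% of cycling and 28.3% of other Ccr10+ cells had a Cd74 UMI. H2-Ab1, an MHC class II beta chain, had 499.7 UPM in cycling and 59.31 UPM in other Ccr10+ cells. Cd74 was thus seen in more cycling than other cells at equal depth, within 1 class. Cd74 within Ccr10+ cells was singled out after its values were seen.

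Cd74 was not spread evenly over the cycling cells. Of the 16 cycling cells of the pool with a Ccr10 UMI, 13 also had Cd74, against 5 of the 21 without Ccr10. The 7 Tcf7+ cycling cells had 0 Cd74 UMIs, and other gamma delta T cells, which should lack it, had it in 0.5587%. MHC class II is also a property of dendritic cells and B cells. In cycling cells of the pool, 4 of 9 B cell and plasma genes had UMIs, in 19 of 37 cells, and 5 of 15 myeloid and dendritic genes, among them Fcer1g with 140 UMIs and Tyrobp with 20, which NK cells also express. Cells of no class among the other cells had 1908 UPM of Cd74. A contribution of RNA from such cells to the Ccr10+ cells was not tested.

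The S phase list held 40 genes and the G2 and M phase list 55, both without the rule genes. S phase genes summed to 5485 UPM in cycling cells of the pool, 5357 UPM in those of the IL-18R- CD103- GFP- labelled library and 5042 UPM in those of the IL-18R- ST2+ library, against 693.0, 699.6 and 607.8 UPM in other cells. G2 and M phase genes summed to 12642, 9937 and 9880 UPM in cycling cells, against 1427, 1470 and 1006 UPM in other cells. The cycling cells of the pool had a UMI of every gene of both lists. Those of the IL-18R- CD103- GFP- labelled library lacked only Gtse1, and the 6 cells of the IL-18R- ST2+ library lacked Gins1, Exo1, Ttk, Kif2c, Anln and Mxd3.

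Each cycling cell was set down as leaning to the list with the larger sum. G2 and M phase led in 26 of 37 cells of the pool (70.27%), 8 of 13 cells of the IL-18R- CD103- GFP- labelled library (61.54%) and 4 of 6 cells of the IL-18R- ST2+ library (66.67%), where 1 more cell was tied. The list sums of other cells also leaned to G2 and M, in 1193 of 1507, 1439 of 1835 and 1030 of 1597 cells, so the leaning is not particular to cycling cells. The shares depend on the lists, since dividing each list sum by its total gave 45.95%, 30.77% and 33.33%. In the pool, 8 of the 12 Ccr10+ cells, 5 of the 7 Tcf7+ cells and 5 of the 5 gamma delta T cells leaned to G2 and M.

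**Figure D4:**
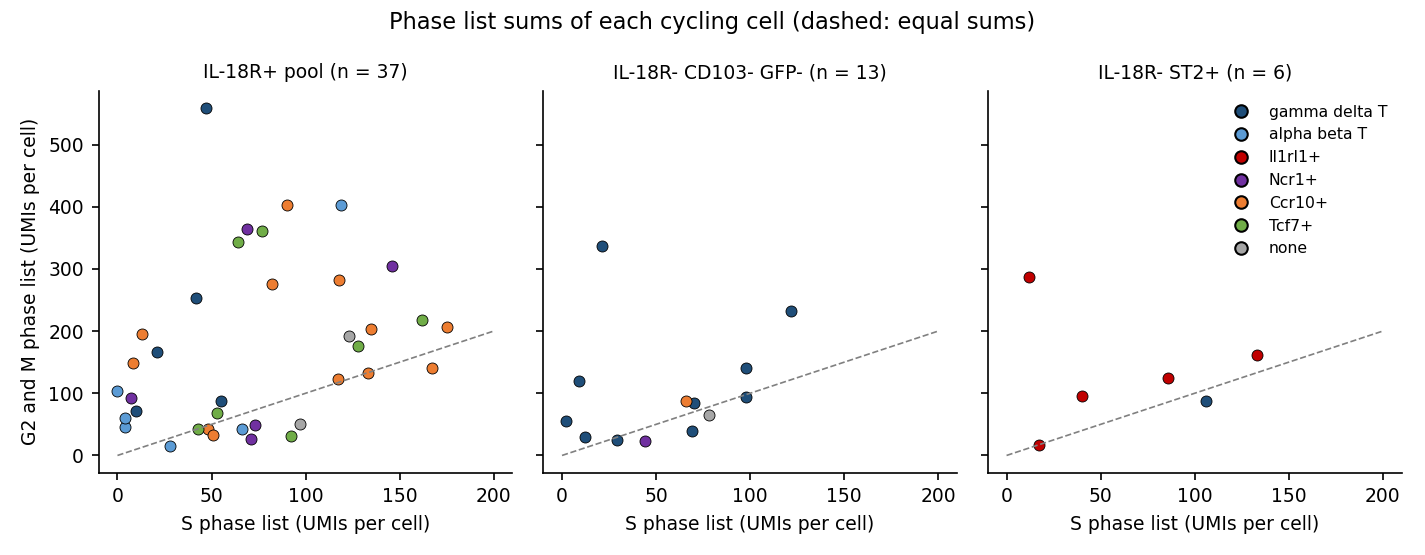
UMIs of the S phase list (horizontal) and of the G2 and M phase list (vertical) in each cycling cell, coloured by class, for the 3 libraries, with equal sums as a dashed line. Cells spread from few UMIs of either list to over 100 S phase UMIs or over 500 G2 and M phase UMIs, and every class with 5 or more cells in a library covers a wide range of sums.

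Mitotic genes were seen mostly in G2M-leaning cells. Among cycling cells of the pool, Cdc20, an activator of the anaphase promoting complex, was seen in 14 of 26 G2M-leaning cells and 1 of 11 S-leaning cells. Plk1, a mitotic kinase, was seen in 12 of 26 and in 0 of 11, and Ccnb1, another mitotic cyclin, in 7 of 26 and 0 of 11. Ccnb2, a cyclin of mitosis, was seen in 24 of 26 and 1 of 11, and Cenpf of the kinetochore in 21 of 26 and 1 of 11. The S phase genes were mixed: Mcm5 of the replicative helicase was seen in 18 of 26 G2M-leaning and 10 of 11 S-leaning cells, and Ccne2, a cyclin of S phase entry, in 11 of 26 and 3 of 11. The lists that set the leaning hold these genes, so the counts describe it. All 5 S-leaning cells of the IL-18R- CD103- GFP- labelled library had no UMI of Cdc20, Ccnb1, Ccnb2, Plk1, Cenpf or Ube2c.

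Genes of DNA synthesis were higher in cycling cells of each library. Dut, which removes dUTP, had 599, 499.9 and 678.3 UPM in cycling cells of the pool, of the IL-18R- CD103- GFP- labelled library and of the IL-18R- ST2+ library, against 70.56, 60.91 and 66.79 UPM in other cells. Pcna, the sliding clamp of the polymerase, had 444.7, 611.8 and 473.5 UPM, against 94.67, 101.6 and 81.51 UPM. Mcm3 of the replicative helicase had 244.4, 261.1 and 192 UPM, against 19.5, 18.56 and 21.44 UPM. These are ratios of 12.53, 14.07 and 8.952 for Mcm3, with counting intervals of 9.795 to 16.01, 9.492 to 20.32 and 4.899 to 15.2.

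Genes of chromosome condensation and mitotic entry were also higher. Hmgb2, a chromatin protein, had 6208, 4476 and 3903 UPM in cycling cells of the 3 libraries in the same order, against 593.7, 646.5 and 562.5 UPM in other cells. Smc2 of condensin had 280.5, 328.3 and 383.9 UPM, against 28.09, 23.89 and 18.86 UPM. Cdk1, the kinase of mitotic entry, had 182.3, 186.5 and 51.19 UPM, against 0.7697, 1.173 and 0.5167 UPM. The ratio of a gene nearly silent in other cells is poorly bounded, as for Cdk1 in the IL-18R- ST2+ library, where 2 cells carried it and the ratio of 99.07 has an interval of 18.45 to 531.9.

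Histones of DNA replication differed between the cycling cells of the libraries. The list of 18 such genes summed to 2316 UPM in cycling cells of the pool, 716.2 UPM in those of the IL-18R- CD103- GFP- labelled library and 947.0 UPM in those of the IL-18R- ST2+ library, against 178.4, 154.5 and 282.7 UPM in other cells. Hist1h2ae had 617.0, 67.14 and 128.0 UPM in cycling cells, seen in 21 of 37, 3 of 13 and 3 of 6 of them. Within the pool, G2M-leaning cells had 2808 UPM of the list and S-leaning cells 915.8 UPM, of which 1 cell gave 55.46%. Most replication histone transcripts lack a poly(A) tail, so a 3' library primed on poly(A) counts them incompletely.

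Promoters of the phase genes were searched for the elements of the 2 phases, since the genes of each list were higher together in all libraries. Sequences are from RefSeq on build GRCm38.p6, 250 bases before to 50 bases after the start, and 75 of 95 phase genes had one. The CHR element was searched as TTTGAA and in its second form as TTCGAA. The element bound by NF-Y was searched as CCAAT, and the E2F element as TTTCGCGC, TTTGGCGC, TTTCCCGC and TTTGCCGC. Each was searched on both strands. Matches may share letters, as an overlapping pair of E2F matches on the 2 strands does.

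CHR was found in 37 of 45 promoters of the G2 and M phase list (82.22%) and 6 of 30 of the S phase list (20%), against 19.44% of the first promoters of 27025 genes. E2F was found in 10 of 30 promoters of the S phase list (33.33%) and 3 of 45 of the G2 and M phase list (6.667%), against 2.316% of all. CCAAT was found in 82.22% of G2 and M phase and 60% of S phase promoters, against 37.92% of all, and CHR together with CCAAT in 71.11% of G2 and M phase promoters, against 7.704% of all. A match is a run of letters, not a site shown to be bound, and the lists were drawn up from textbook knowledge of these phases.

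Shown for the S phase genes with an E2F match and the most UMIs in cycling cells are the promoters of Mcm3 (chr1:20820263-20820562, minus strand) and Mcm6 (chr1:128359656-128359955, minus strand), both subunits of the replicative helicase. They are printed 5′ to 3′ with E2F matches in capitals, and Mcm6 holds 3 matches of which an overlapping pair reads as 1 stretch.
Mcm3: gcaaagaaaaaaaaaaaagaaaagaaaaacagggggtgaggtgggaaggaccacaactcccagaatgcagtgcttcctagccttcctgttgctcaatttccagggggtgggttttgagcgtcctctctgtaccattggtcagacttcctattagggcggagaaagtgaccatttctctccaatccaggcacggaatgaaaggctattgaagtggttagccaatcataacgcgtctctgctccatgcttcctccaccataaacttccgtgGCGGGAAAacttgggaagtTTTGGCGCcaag
Mcm6: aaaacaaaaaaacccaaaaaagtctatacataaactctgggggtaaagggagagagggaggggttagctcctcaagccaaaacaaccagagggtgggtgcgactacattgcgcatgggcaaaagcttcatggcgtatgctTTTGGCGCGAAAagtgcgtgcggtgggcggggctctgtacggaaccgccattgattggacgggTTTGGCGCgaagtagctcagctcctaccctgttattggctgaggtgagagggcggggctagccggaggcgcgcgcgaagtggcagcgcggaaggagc

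Shown for the G2 and M phase genes with both a CHR and a CCAAT match and the most UMIs in cycling cells are the promoters of Hmgb2 (chr8:57511593-57511892, plus strand) and Smc2 (chr4:52438971-52439270, plus strand). CHR and CCAAT matches are in capitals, where TTCAAA is the CHR form TTTGAA on the other strand. Each holds 2 CHR matches, with 4 CCAAT matches in Hmgb2 and 1 in Smc2.
Hmgb2: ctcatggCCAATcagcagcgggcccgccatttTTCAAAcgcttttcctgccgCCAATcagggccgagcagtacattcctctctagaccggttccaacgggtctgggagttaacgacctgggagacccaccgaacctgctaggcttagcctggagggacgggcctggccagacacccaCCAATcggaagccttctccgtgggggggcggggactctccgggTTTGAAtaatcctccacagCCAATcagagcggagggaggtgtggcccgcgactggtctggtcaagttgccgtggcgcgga
Smc2: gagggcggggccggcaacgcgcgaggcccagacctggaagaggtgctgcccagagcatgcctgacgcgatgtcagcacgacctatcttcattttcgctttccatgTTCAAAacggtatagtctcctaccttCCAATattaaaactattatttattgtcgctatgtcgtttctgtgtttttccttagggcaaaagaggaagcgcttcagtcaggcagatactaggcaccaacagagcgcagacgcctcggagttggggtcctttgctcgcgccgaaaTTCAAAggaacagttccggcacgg

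The genes of the rule lie on GRCm38 at chr7:135689784-135716361 (Mki67), chr11:98992943-99024189 (Top2a), chr11:117849251-117855743 (Birc5), chr9:65890237-65903266 (Pclaf), chr12:24708241-24714146 (Rrm2) and chr2:119618298-119651244 (Nusap1). Ccr10 lies at chr11:101172997-101175443 and Trdc at chr14:54142851-54148868, upstream of Trac on the same strand.

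Over all genes, UMIs were summed over cycling and over other cells of a library, and a gene of at least 50 UPM in either was called higher or lower at a ratio of 2. A call of higher also needed a UMI in at least 25% and at least 3 of the cycling cells. In the pool 453 of 3510 measured genes were higher (12.9%) and 388 lower (11.1%). In the IL-18R- CD103- GFP- labelled library 465 of 3488 were higher (13.3%) and 268 lower (7.68%), and in the IL-18R- ST2+ library 789 of 3546 were higher (22.3%) and 127 lower (3.58%). The cells were chosen on this contrast, so nothing is read from these shares.

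Scaling by TMM (a trimmed mean of ratios) in place of library totals moved all ratios down by 0.05, 0.20 and 0.49 on the log2 scale. The counts of higher and lower genes were then 416 and 421, 348 and 406, and 428 and 526 in the same order of libraries. The direction of small differences in the IL-18R- ST2+ library, whose 6 cells hold 78139 UMIs, therefore depends on the scaling.

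Genes called higher in all 3 libraries numbered 184 of 2720 measured in all, of which 81 belong to the rule, phase, chromatin, histone or entry lists. All 20 genes of chromatin and nuclear growth were higher in each library. H2afz, a histone variant made through the cycle, had 2889, 2514 and 2355 UPM in cycling cells of the 3 libraries, against 683.6, 624.8 and 379.2 UPM in other cells, and Tuba1b, an alpha tubulin, had 925.5, 954.9 and 1357 UPM, against 68.12, 92.49 and 95.85 UPM. The S phase list had 32 of 32, 30 of 31 and 27 of 28 measured genes higher, and the G2 and M phase list 39 of 40, 34 of 38 and 32 of 38, with none lower. In these lists the few genes that were not called higher stood with too few cells or too small a ratio, such as Tubb4b in the IL-18R- CD103- GFP- labelled library with 201.4 UPM in cycling and 128.4 UPM in other cells.

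Genes of cell cycle entry were mixed. Cks1b, a subunit that helps degrade the inhibitor p27, had 274.4, 238.7 and 345.5 UPM in cycling cells of the 3 libraries, against 7.825, 5.44 and 5.813 UPM in other cells. Cdk4, the kinase of the D cyclins, was 2.868, 2.541 and 4.221 times as high in cycling cells. The D cyclins differed among themselves. Ccnd2 was lower in cycling cells of the pool, with 158.3 against 452.3 UPM, and of the IL-18R- CD103- GFP- labelled library, with 179.1 against 527.3 UPM. In the IL-18R- ST2+ library Ccnd2 had 371.1 UPM in cycling and 463.4 UPM in other cells, a ratio of 0.8009 (0.5356 to 1.152), and there Ccnd3 was higher, with 217.6 against 51.03 UPM. Of the measured genes of the entry list, 5 of 8, 4 of 6 and 7 of 10 were higher and 1, 1 and 0 lower. The shares over all genes were 12.9%, 13.3% and 22.3% higher and 11.1%, 7.68% and 3.58% lower.

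Of the cell cycle brakes, most did not pass the ratio of 2, with 3 of 18, 2 of 17 and 2 of 16 higher and 2, 2 and 3 lower. Over all genes 12.9%, 13.3% and 22.3% were higher and 11.1%, 7.68% and 3.58% lower. Btg1, an antiproliferative factor of resting lymphocytes, was lower in all 3 libraries. It had 907.5, 1089 and 1408 UPM in cycling cells, against 2176, 2615 and 3987 UPM in other cells, ratios of 0.4171 (0.3791 to 0.4579), 0.4165 (0.3515 to 0.4901) and 0.3531 (0.2901 to 0.4258). As UMIs per cell rather than as a share, Btg1 had a median of 9.5 in cycling and 11 in other gamma delta T cells of the IL-18R- CD103- GFP- labelled library, and of 18 and 17 in Il1rl1+ cells of the IL-18R- ST2+ library. In Ccr10+ cells of the pool the median of Btg1 was 5.5 in cycling and 12 in other cells. Other classes of the pool had medians of 5.5 and 11 (alpha beta T), 10 and 9 (gamma delta T), 15 and 12 (Tcf7+), 25 and 12 (Ncr1+) and 14.5 and 13 (none). A lower share of a larger transcriptome thus went with fewer molecules per cell in some classes and not in others.

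Cdkn2c, which encodes the CDK4 inhibitor p18, was higher in cycling cells of the pool, with 80.13 against 13.47 UPM, and of the IL-18R- ST2+ library, with 63.99 against 5.167 UPM. Txnip, a brake on glucose uptake, had 46.07 UPM in cycling and 207.7 UPM in other cells of the pool, a ratio of 0.2218 (0.1402 to 0.334). Cdkn1b, which encodes p27, had 110.2 against 135.6 UPM there and did not pass the ratio of 2.

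Genes lower in all 3 libraries numbered 16 of 2720 measured in all, 0 of them in the rule, phase, chromatin, histone or entry lists. Besides Btg1 they were Ankrd12, Bcl2, Camk2n1, Clec2d, Gimap8, Kdm7a, Malt1, Mdfic, Ppp1r9b, Rasal3, Smim14, Socs2, Ypel3, Zbtb20 and Zfp36l1. Zfp36l1, an RNA-binding protein that favours quiescence in lymphocytes, had 382.6, 335.7 and 921.4 UPM in cycling cells of the pool, of the IL-18R- CD103- GFP- labelled library and of the IL-18R- ST2+ library, against 1021, 991.5 and 1924 UPM in other cells. Bcl2, which protects resting lymphocytes from death, had 30.05, 96.99 and 89.58 UPM, against 109.2, 195.4 and 202.2 UPM. Socs2, a feedback inhibitor of cytokine signalling, had 16.03, 7.461 and 12.8 UPM, against 91.34, 93.55 and 104.6 UPM, and rests on 1 cell in each of the smaller libraries. Zfp36l1, Bcl2 and Socs2 were named after their values were seen.

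**Figure D5:**
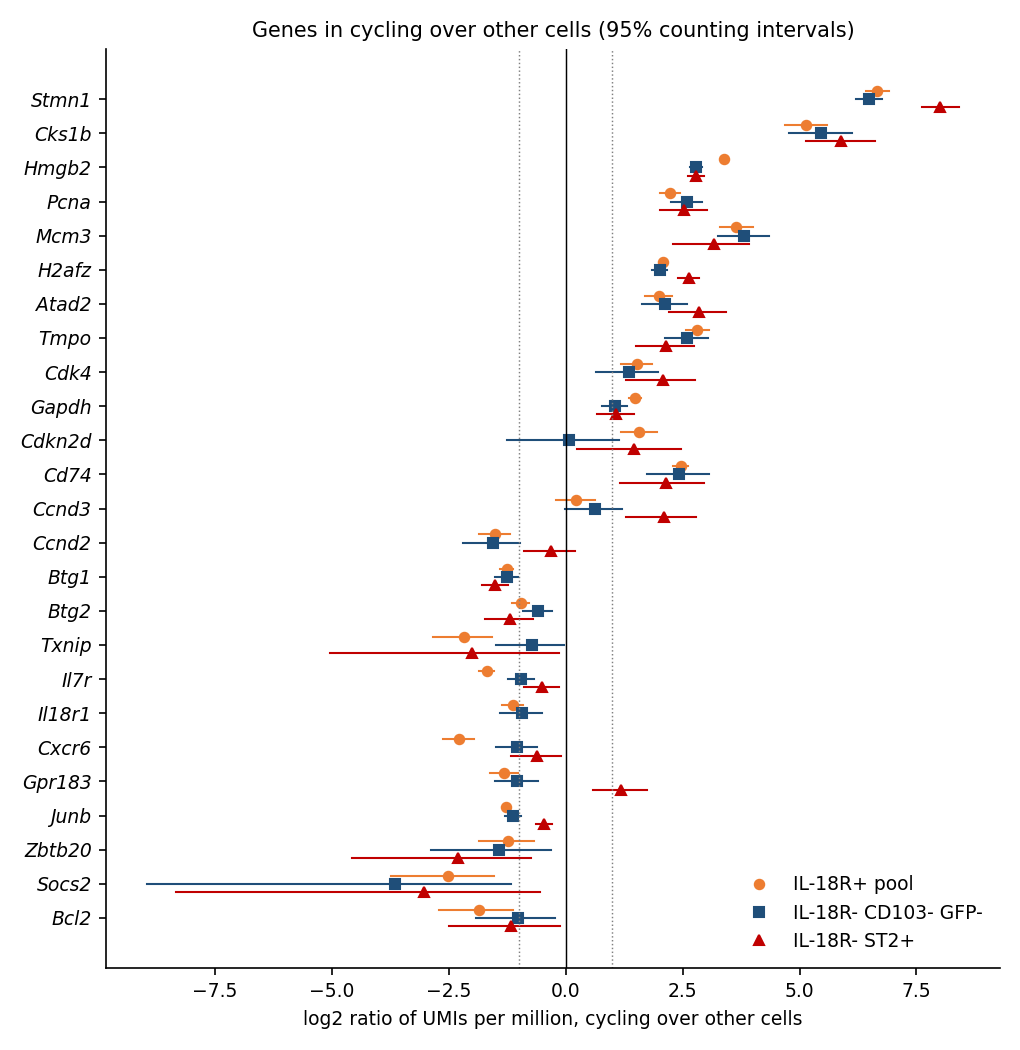
Log2 ratio of UPM in cycling over other cells for named genes in the 3 libraries, with 95% counting intervals as lines, a solid line at no difference and dotted lines at a ratio of 2 in either direction. Stmn1 and Cks1b lie farthest right in every library, Btg1 lies left of the dotted line in every library, and Gpr183 and Ccnd2 differ in place between the libraries.

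Outside the cycle lists, the genes of largest ratio were again mostly of chromosomes. In the pool Pbk, a mitotic kinase, Esco2 of sister chromatid cohesion and Ska1 of the kinetochore had 74.12, 72.12 and 60.1 UPM in cycling cells and 0 UMIs in other cells, at least 192.6-fold, 187.4-fold and 156.2-fold higher against a floor of 3 UMIs over the group. Within the IL-18R- CD103- GFP- labelled library, Ncapg2 of condensin had 156.7 UPM in cycling and 2.56 UPM in other cells, and Gmnn, which encodes the replication licensing inhibitor geminin, 201.4 against 19.52 UPM. In the IL-18R- ST2+ library Atad2, a chromatin ATPase, had 332.7 UPM in cycling and 46.25 UPM in other cells, and Ube2s, which extends ubiquitin chains in mitosis, 665.5 against 139.3 UPM. Crip1 had 3071 against 718.1 UPM there and Txn1 1088 against 256.0 UPM. The remaining genes of largest ratio there were Selenoh, Ywhah, Tmpo and Alyref. Each passed the ratio of 2 in the library named.

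Most genes of ribosome building and glycolysis did not pass the ratio of 2. Their lists had median log2 ratios of 0.54 and 0.48 for the pool, 0.27 and 0.25 for the IL-18R- CD103- GFP- labelled library and 0.55 and 0.60 in the IL-18R- ST2+ library. With TMM scaling these medians were 0.49 and 0.43, 0.07 and 0.05, and 0.06 and 0.11 in the same order. Of genes of ribosome building and nucleotide synthesis, 2 of 14, 3 of 12 and 7 of 16 measured were higher and 0, 2 and 0 lower. Paics of purine synthesis was 2.749, 2.823 and 3.835 times as high in cycling cells, while Npm1 of the nucleolus was 1.496, 1.092 and 1.219 times as high and did not pass. Of glycolysis genes, 4 of 11, 2 of 11 and 4 of 10 were higher and 2, 0 and 1 lower. Beside both lists, 12.9%, 13.3% and 22.3% of all genes were higher and 11.1%, 7.68% and 3.58% lower. Gapdh had 1200, 858 and 729.5 UPM in cycling cells, against 428.2, 413.4 and 346.3 UPM, calls that TMM scaling removes in the IL-18R- CD103- GFP- labelled library and in the IL-18R- ST2+ library. Hk2, the first enzyme of glycolysis, went the other way in the pool, with 66.11 UPM in cycling and 372.9 UPM in other cells.

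Gene lists of lineage differed in cycling cells of the pool. Of gamma delta T genes 9 of 10 and of type 17 genes 7 of 8 measured were lower there, with none higher, where 11.1% of all genes were lower. Gamma delta T cells made up 13.51% of cycling and 59.39% of other cells there, and the part of this in the list counts was not tested. With other cells weighted to the classes of the cycling cells, Il1r1, a receptor of IL-1 on the type 17 list, had a ratio of 0.2026. Il2ra of the IL-2 receptor, on neither list, had 0.3459. The list counts and the values of Cd163l1, Blk and Igf1r that follow are without this weighting. Cd163l1, a scavenger receptor of IL-17-producing gamma delta T cells, had 52.08 UPM in cycling and 622.3 UPM in other cells, and Blk, a kinase of the same cells, 16.03 against 255.3 UPM. Igf1r, the receptor of insulin-like growth factor, had 8.013 UPM in cycling and 262.9 UPM in other cells. Areg, which encodes amphiregulin, was higher in cycling cells of the pool as a whole, with 534.9 against 204.2 UPM, but among Ccr10+ cells it had 315.9 UPM in cycling and 560.1 UPM in other cells, which did not pass. Cd7, a surface protein of immature lymphocytes, had 366.6 UPM in cycling and 111.1 UPM in other cells of the pool, and 666.2 against 593.1 UPM among Ccr10+ cells. For Areg and Cd7 the values over all cells and within Ccr10+ cells thus differ.

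In the IL-18R- CD103- GFP- labelled library, where gamma delta T cells lead both groups, 5 of 9 measured gamma delta T genes and 3 of 7 type 17 genes were lower in cycling cells. Over all genes 7.68% were lower there. Within gamma delta T cells alone, Cd163l1 had 257 UPM in cycling and 769.5 UPM in other cells, and Trdv4, a variable segment of the delta chain, 405.2 against 888.5 UPM. Il17a had 207.6 UPM in cycling and 449.8 UPM in other gamma delta T cells, with a UMI in 30% of cycling and 33.42% of other cells. All 3 genes passed as lower in UPM within this class, whose cycling cells were deeper, with a median of 10341 against 4722 UMIs. In UMIs per cell, the median of Il17a was 0 in both groups, and that of Trdc 15.5 in cycling and 10 in other cells.

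In the IL-18R- ST2+ library, of 12 measured ILC2 genes 0 were higher and 1 was lower, where 22.3% of all genes were higher and 3.58% lower. Gata3, the factor of ILC2 identity, had 678.3 UPM in cycling and 863.1 UPM in other cells, and Areg 1920 against 1655 UPM. The cytokines Il5 and Il13 had 166.4 and 230.4 UPM in cycling cells, against 170.3 and 180.2 UPM in other cells. The gene that passed was Calca, which encodes the peptide CGRP, with 166.4 against 541.4 UPM. With 6 cells, differences of less than a ratio of 2 were mostly within counting error, as for Il13 with a ratio of 1.278 (0.7553 to 2.028).

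Of cytokine receptors 6 of 11 measured were lower and 0 higher in cycling cells of the pool, and of homing genes 3 of 6 were lower and 1 higher, against 11.1% lower over all genes. In the IL-18R- CD103- GFP- labelled library 1 of 11 and 2 of 6 were lower, where 7.68% of all genes were lower. In the IL-18R- ST2+ library 1 of 9 and 0 of 5 were lower, against 3.58% over all genes. Gamma delta T cells made up 13.51% of cycling and 59.39% of other cells of the pool, and the part of this in its counts was not tested. Il7r, the receptor of IL-7 used in the sort, had 631.0, 865.4 and 780.7 UPM in cycling cells of the 3 libraries, against 2034, 1671 and 1109 UPM in other cells, ratios of 0.3103, 0.518 and 0.704, of which the first passed. With TMM scaling the ratio of Il7r in the IL-18R- CD103- GFP- labelled library was 0.4506, which passed. In UMIs per cell the leading classes differed. The median of Il7r was 10.5 in cycling and 7 in other Ccr10+ cells of the pool, 7 and 8 in gamma delta T cells of the IL-18R- CD103- GFP- labelled library, and 10 and 5 in Il1rl1+ cells of the IL-18R- ST2+ library. Cxcr6, a chemokine receptor of resident lymphocytes, had 154.2, 343.2 and 383.9 UPM in cycling cells, against 750.6, 704.8 and 585.3 UPM, and passed in all but the IL-18R- ST2+ library, where with TMM scaling its ratio of 0.4683 passed too.

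Of genes induced by tissue handling, 5 of 13 measured were lower and 0 higher in cycling cells of the pool, where 11.1% of all genes were lower. In the IL-18R- CD103- GFP- labelled library 3 of 13 were lower, against 7.68% of all genes. In the IL-18R- ST2+ library 1 of 14 was lower, against 3.58%, and the median log2 ratio of the list was -0.07. Junb had 1969, 1940 and 3647 UPM in cycling cells, against 4763, 4228 and 5041 UPM in other cells, and Fos 408.7, 529.7 and 934.2 UPM, against 1122, 795.9 and 1070 UPM. Nr4a1, a factor of the same kind, had 699.1 UPM in cycling and 551.6 UPM in other cells of the pool and did not pass. The part of handling in the results was not tested.

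Cycling cells of the libraries were finally set against each other by the same rule. Of 3552 genes measured in the pool and the IL-18R- CD103- GFP- labelled library, 297 (8.36%) were higher and 308 (8.67%) lower in cycling cells of the pool, or 369 and 261 with TMM scaling. Against the IL-18R- ST2+ library, 281 of 3790 (7.41%) were higher in the pool and 565 (14.9%) lower, or 459 and 453 with TMM scaling. Cycling cells of the IL-18R- CD103- GFP- labelled library had 320 of 3910 genes higher (8.18%) and 675 lower (17.3%) than those of the IL-18R- ST2+ library, or 438 and 546 with TMM scaling. All 3 sets of values share libraries.

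Some phase list genes were called between the cycling cells of the libraries. Against the IL-18R- ST2+ library their lower calls were rarer than over all genes. There 14.9% of all genes were lower for the pool and 17.3% for the IL-18R- CD103- GFP- labelled library, and 7.41% and 8.18% were higher. For the pool against the IL-18R- CD103- GFP- labelled library, 8.36% of all genes were higher and 8.67% lower. Higher calls of S phase genes were not rarer than these shares in any comparison. All these cells were chosen on cycle genes, so nothing is read from the phase list counts. Of S phase genes, 4 of 34 were higher and 2 lower in cycling cells of the pool than in those of the IL-18R- CD103- GFP- labelled library, and of G2 and M phase genes 4 of 44 and 2. Against the IL-18R- ST2+ library these were 3 of 33 and 0, and 2 of 43 and 2. In cycling cells of the IL-18R- CD103- GFP- labelled library, against those of the IL-18R- ST2+ library, they were 5 of 32 and 2, and 3 of 42 and 3. Of replication histones 8 of 11 were higher and 0 lower, 6 of 13 and 1, and 0 of 8 and 3, in the same order of comparisons. Gamma delta T genes were lower in cycling cells of the pool than in those of the IL-18R- CD103- GFP- labelled library in 7 of 8, and ILC2 genes lower than in those of the IL-18R- ST2+ library in 9 of 12.

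Individual lineage genes showed the same separation. Gata3 had 268.4, 119.4 and 678.3 UPM in cycling cells of the pool, of the IL-18R- CD103- GFP- labelled library and of the IL-18R- ST2+ library. Il2rb, a receptor chain for IL-2 and IL-15, had 226.4, 343.2 and 89.58 UPM in these cells, and Kit, the receptor of stem cell factor, 64.1, 14.92 and 204.8 UPM. Il5 was counted in 1 of 37, 0 of 13 and 4 of 6 of these cells, and Klrd1, an NK receptor chain, in 6, 5 and 0.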

How the data were processed

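The deposited files held raw UMI counts per gene and cell barcode, made by the authors with Cell Ranger 6.0.1 on build mm10, per the submitters' processing notes. Whether doublets or cells had been removed earlier is not given in the sources used here. Cells were kept at 500 or more genes and at most 10% mitochondrial UMIs, leaving 1659, 1883 and 1622 cells with 9000301, 9705864 and 7966923 UMIs in the IL-18R+ pool, the IL-18R- CD103- GFP- labelled library and the IL-18R- ST2+ library. No cell was removed as a doublet. UMIs were summed over cycling and other cells and scaled to 1000000. Shares have exact Clopper-Pearson intervals, levels exact Poisson intervals and ratios conditional binomial intervals, all at 95% and covering counting error only. A count of 0 is given the limit that 3 counts allow. Because each group is 1 library, no test across samples was made. Genes were called by size: 50 UPM in either set, a ratio of 2 against a floor of 3 UMIs, and, for a higher call, a UMI in 25% and 3 of the cells.

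Named genes were the rule genes, Stmn1, the 6 lineage genes, up to 5 measured genes of highest level in each of 28 lists, and in each library the 8 called genes of largest ratio per direction outside the cycle lists (at least 20 UMIs in cycling cells or 100 UPM in other cells). The members and lists were chosen with earlier results of these data known. Thinning drew 2000 UMIs per cell. Some items are not reported here. The gene calling was checked on simulated data. Alternatives covered the rule, the filters, depth, classes, doublet calls, TMM scaling and thresholds. Python 3.11.15, numpy 2.4.6, scipy 1.17.1, pandas 2.3.3, scanpy 1.11.5, scikit-learn 1.9.0 and matplotlib 3.10.9 were used.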

Additional observations from a re-analysis of the deposited data

Results flagged for a closer look

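For 3 genes the cycling cells of 1 library stood on the other side of their other cells than in another library. These differences between libraries were not tested, since each group is 1 library. Values are log2 ratios of UPM in cycling over other cells.

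Gpr183, an oxysterol receptor that guides lymphocyte position, was higher in the IL-18R- ST2+ library, at 1.186 (345.5 against 151.9 UPM). It was lower in the pool, at -1.313 (198.3 against 492.7 UPM), and in the IL-18R- CD103- GFP- labelled library, at -1.03 (298.4 against 609.4 UPM). Within the leading class of each library the ratio, not on the log2 scale, was 2.157 in Il1rl1+ cells, 0.8257 in Ccr10+ cells of the pool and 0.4334 in gamma delta T cells. With TMM scaling the ratio of Gpr183 in the IL-18R- ST2+ library was 1.624, under the ratio of 2, and with other cells weighted to the classes of the cycling cells its ratio in the pool was 0.6204, which did not pass.

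Tcrg-C1, a gamma chain constant region, stood at 1.285 in the IL-18R- ST2+ library (153.6 against 63.04 UPM), at -2.702 in the pool (72.12 against 469.4 UPM) and at -1.092 in the IL-18R- CD103- GFP- labelled library (246.2 against 524.8 UPM). Within Il1rl1+ cells of the IL-18R- ST2+ library the ratio of Tcrg-C1, not on the log2 scale, was 1.107, and with TMM scaling over all cells it was 1.739, under the ratio of 2. Tspan32, a tetraspanin of blood cells, stood at 1.368 in the pool (78.13 against 30.28 UPM) and at -2.072 in the IL-18R- ST2+ library (38.39 against 161.5 UPM, from 3 UMIs). With other cells weighted to the classes of the cycling cells, the ratio of Tspan32 in the pool was 1.557, which did not pass.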

How the results depend on the processing

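Of 168 values for 31 results under alternatives, 146 stayed within their interval or 1.5 times their count, and 22 moved. Thinning put the cycling share of the pool at 1.402%. Neighbours put the gamma delta T share of cycling cells in the IL-18R- CD103- GFP- labelled library, and the Il1rl1+ share in the IL-18R- ST2+ library, at 100%. The other cells of these libraries, from which neighbours are drawn, were mostly of these classes. Dividing list sums by their totals put the G2M-leaning share at 45.95% (pool) and 30.77% in the IL-18R- CD103- GFP- labelled library. Without a level filter 1133 genes were lower in cycling cells of the pool. A ratio of 3 left 227 genes higher and 153 lower for the pool, 218 and 60 for the IL-18R- CD103- GFP- labelled library, and 393 and 28 in the IL-18R- ST2+ library. TMM scaling gave 406 lower genes in the IL-18R- CD103- GFP- labelled library, and 428 higher and 526 lower in the IL-18R- ST2+ library. Between cycling cells, a ratio of 3 left 68 higher and 114 lower for the pool against the IL-18R- CD103- GFP- labelled library, 53 and 236 for the pool against the IL-18R- ST2+ library, and 78 and 242 for the IL-18R- CD103- GFP- labelled library against the IL-18R- ST2+ library. TMM gave 459 higher for the pool against the IL-18R- ST2+ library. The alternatives within a leading class, with a CD3 limit of 4 UMIs and between cycling cells were chosen after seeing the data. Fewer genes pass a stricter ratio by construction; for the other moves the cause was not tested. The 6 cycling cells of the IL-18R- ST2+ library limit every value there. No paired analysis was possible because each group is 1 library.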
